A study of Homo sapiens with 6 samples.

Results

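The iron and 2-oxoglutarate dependent dioxygenases described here are 42 genes, chosen by symbol and grouped in 5 classes: 18 histone demethylases and related JmjC oxygenases (KDM, JMJD, PHF and MINA), 3 TET genes, 9 genes of the ALKBH family with FTO, 6 collagen hydroxylases (P4HA and PLOD) and 6 others. All 42 symbols were on the array, with 70 probes. Of the 22718 gene names with a probe detected on all arrays, 39 belonged to these genes, represented by 61 probes. TET1, TET3 and P4HA3 had no probe that passed this detection filter.

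The genes were measured in tumors grown subcutaneously in female BALB/c (nu/nu) mice from BxPC-3, a single epithelial cell line derived from a human pancreatic adenocarcinoma. The mice were 8 to 10 weeks old at the start, and lack T cells but keep other host cells. From a tumor volume of 150 mm3, 3 mice of the DFX group received deferasirox, an oral iron chelator, in saline at 200 mg/kg by gavage 3 times a week for 21 days, and 3 mice of the Control group received the vehicle alone. One tumor was hybridized to each one-color array of human probes, so the tumor is the replicate (n = 3 in each group), and fewer cells of a type cannot be told apart from less RNA per cell. The comparison asks whether RNA of these iron enzymes differed after iron chelation.

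These enzymes hold a ferrous iron at the active site and use oxygen and 2-oxoglutarate to hydroxylate a protein, nucleic acid or small molecule. Hydroxylation of a methyl group can lead to its removal from histones, DNA or RNA, and hydroxylation of proline and lysine stabilizes and crosslinks collagen. Iron chelators inhibit such enzymes directly, including the prolyl hydroxylases that mark hypoxia-inducible factor (HIF) for degradation. KDM3A, KDM4B, KDM4C, P4HA1, P4HA2, PLOD1 and PLOD2 are themselves known as HIF target genes. An array measures their RNA and not their activity.

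HIF binds the core letters ACGTG or GCGTG. The 250 bases before the annotated start are shown for the 5 of these 7 genes whose lowest tumor was Control 3 and whose highest was DFX 3, as described below. They come from the RefSeq promoter table of GRCh38.p14, which held 38 of the 42 genes, and are written 5′ to 3′ on the strand of the gene. Capitals mark the core letters on either strand. CACGTG reads as a match on both strands and counts as 2.
PLOD2, chr3:146161185-146161434, minus strand: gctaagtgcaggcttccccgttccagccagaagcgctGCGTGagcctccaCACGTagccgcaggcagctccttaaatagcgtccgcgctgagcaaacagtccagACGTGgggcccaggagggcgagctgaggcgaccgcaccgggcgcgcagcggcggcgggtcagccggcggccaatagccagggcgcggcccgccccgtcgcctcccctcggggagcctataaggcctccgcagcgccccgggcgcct
P4HA1, chr10:73096867-73097116, minus strand: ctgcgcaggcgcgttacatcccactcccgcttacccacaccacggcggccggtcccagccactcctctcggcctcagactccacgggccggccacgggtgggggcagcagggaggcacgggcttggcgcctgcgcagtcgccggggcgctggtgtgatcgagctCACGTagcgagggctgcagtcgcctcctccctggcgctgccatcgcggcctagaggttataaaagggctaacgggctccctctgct
KDM4C, chr9:6757723-6757972, plus strand: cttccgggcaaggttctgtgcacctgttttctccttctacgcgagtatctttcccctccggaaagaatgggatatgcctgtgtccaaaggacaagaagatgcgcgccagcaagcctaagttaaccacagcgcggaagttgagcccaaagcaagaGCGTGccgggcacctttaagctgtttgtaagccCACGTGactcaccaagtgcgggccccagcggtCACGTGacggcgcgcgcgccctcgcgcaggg
KDM4B, chr19:4968863-4969112, plus strand: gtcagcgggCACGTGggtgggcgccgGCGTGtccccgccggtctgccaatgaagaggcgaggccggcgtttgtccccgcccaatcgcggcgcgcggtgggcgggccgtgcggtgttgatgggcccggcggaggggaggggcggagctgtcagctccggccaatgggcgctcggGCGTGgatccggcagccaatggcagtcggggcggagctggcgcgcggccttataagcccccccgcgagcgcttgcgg
KDM3A, chr2:86441121-86441370, plus strand: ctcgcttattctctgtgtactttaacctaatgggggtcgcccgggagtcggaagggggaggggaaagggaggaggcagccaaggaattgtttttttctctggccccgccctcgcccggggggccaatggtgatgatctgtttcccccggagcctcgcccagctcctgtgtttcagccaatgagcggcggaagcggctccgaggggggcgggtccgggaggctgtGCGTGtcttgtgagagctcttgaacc
PLOD2 held 3 matches, P4HA1 held 1, KDM4C held 5, KDM4B held 4 and KDM3A held 1 in this window. At least 1 match was found in 6 of the 7 known HIF targets among the dioxygenases, with P4HA2 as the exception, in 22 of the 38 dioxygenase genes and in 43.1% of 27305 promoters of the same length. The promoters compared were not matched for base composition, and a match is a description of the letters and not a binding site.

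No dioxygenase differed in RNA between the groups at an adjusted p under 0.05. A probe was called at an unadjusted p under 0.05 in limma, as the study's methods give this threshold and name no adjustment. No probe of the array passed after Benjamini-Hochberg adjustment (lowest adjusted p = 0.0675). ALKBH6 was called lower and ASPH higher in the DFX group. These are 2 of 39 genes, or 5.13%, whether any probe of a gene or its brightest probe was counted. Among all 22718 genes, 10.8% had a called probe and 7.98% had a called brightest probe. The difference is of few genes and was not tested, so the number of calls is no result about the dioxygenases. In the higher direction 1 gene was called against 4.45% of all genes, and in the lower direction 1 gene against 6.4%. The groups did not overlap for 2 of the 61 probes, the called probes of ALKBH6 and ASPH, against 15.5% of all tested probes.

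The values below are log2 normalized intensities, and a fold change is the DFX mean minus the Control mean on this scale, with its standard error (SE) from limma. Where a gene had several tested probes, the brightest stands for it unless stated. Over the 39 genes the log2 fold change had a median of 0.025, and 21 were higher and 18 lower, while over all genes it had a median of -0.012. The median size of the change, disregarding its sign, was 0.154 for the dioxygenases and 0.15 for all genes. For 35 of the 39 genes (89.7%) the whole 95% interval of the change lay within 1 log2 unit of 0, as it did for 78.4% of all genes. The exceptions were KDM5A, JMJD6, PLOD2 and BBOX1. The median SD between tumors of a group was 0.18 for the dioxygenases and 0.208 for all genes. Of the 15 dioxygenase genes with several tested probes, 8 had probes that differed in sign.

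**Figure D1:**
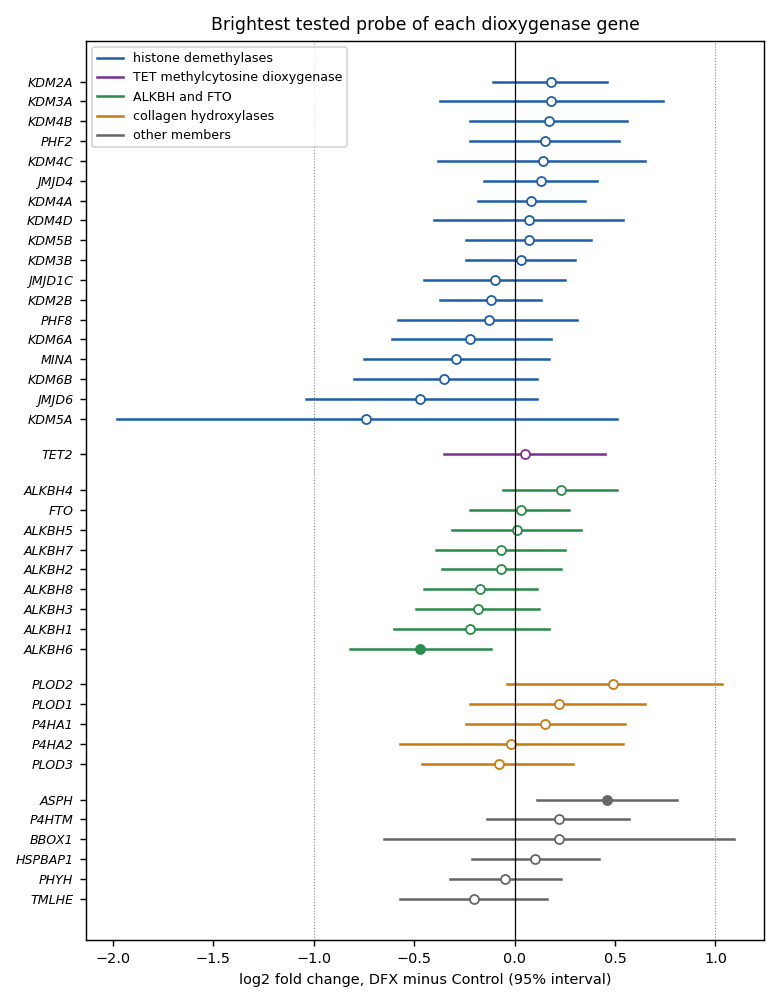
Log2 fold change of the brightest tested probe of 39 dioxygenase genes (points, x axis) with 95% intervals (lines), ordered by class, where filled points are the probes of ALKBH6 and ASPH called at an unadjusted limma p under 0.05, and dotted lines mark 1 log2 unit. The value of KDM5A comes from a probe that was well above background on 1 of 6 arrays and is no measured fold.

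Among the collagen hydroxylases, 3 of 5 tested genes were higher and 2 lower in the DFX group, the median log2 fold change was 0.15, and none was called. PLOD2 hydroxylates the lysines of collagen telopeptides, which form the stable crosslinks of stiff matrix. Its log2 intensity was 11.13, 11.60 and 10.95 in the Control group and 11.57, 11.57 and 12.02 in the DFX group. Control 2 lay just above DFX 1 and DFX 2, and the other Control tumors lay below all DFX-treated tumors. The log2 fold change was 0.49 (SE 0.22), a 1.41-fold difference with a 95% interval of -0.04 to 1.03 on the log2 scale (limma unadjusted p = 0.0661, adjusted p = 0.613). PLOD2 passed the unadjusted threshold when Control 2 was left out, with normexp background correction, and when the tested probes were limited to those well above background.

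P4HA1 and P4HA2 are catalytic subunits of the prolyl hydroxylase that stabilizes the collagen triple helix. P4HA1 was at 11.91, 11.93 and 11.56 in the Control group and at 11.86, 11.83 and 12.18 in the DFX group, a log2 fold change of 0.15 (SE 0.16, limma unadjusted p = 0.377, adjusted p = 0.804). P4HA2 was at 13.09, 13.22 and 12.49 against 12.75, 12.85 and 13.16, a log2 fold change of -0.02 (SE 0.23, limma unadjusted p = 0.949, adjusted p = 0.99). In both genes Control 3 was the lowest tumor, and the groups overlapped. P4HA3, another catalytic subunit, was at 3.19, 4.89 and 2.57 against 2.19, 3.39 and 2.14 and was well above background in Control 2 only, so no fold is given.

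PLOD1, another lysyl hydroxylase, was at 8.99, 9.57 and 9.30 in the Control group and at 9.64, 9.52 and 9.34 in the DFX group, with a log2 fold change of 0.22 (SE 0.18, limma unadjusted p = 0.268, adjusted p = 0.75). PLOD3, which also adds sugars to hydroxylysine, was at 12.26, 12.71 and 12.52 against 12.55, 12.42 and 12.27, with a log2 fold change of -0.08 (SE 0.15, limma unadjusted p = 0.605, adjusted p = 0.891). The groups overlapped for both genes. Of 22 tested collagen chains and partners of these enzymes, 12 were higher and 10 lower in the DFX group. By the brightest probe 3 (13.6%) were called, against 7.98% of all genes, and all 3 were higher. They were COL6A1 (log2 fold change 1.37, SE 0.37), COL18A1 (0.45, SE 0.12) and LOX (0.54, SE 0.21), the last a copper enzyme that oxidizes collagen lysines. P4HB, the partner subunit of the prolyl hydroxylase, had a log2 fold change of 0.07 (SE 0.09) and SERPINH1, a collagen chaperone, of 0.18 (SE 0.21). A second probe of GLT25D1, a collagen galactosyltransferase, was called lower at -1.04, while its brightest probe was at -0.07.

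The 7 dioxygenases known as HIF targets had a median log2 fold change of 0.17, with 6 higher and 1 lower, and none was called. Their values followed single tumors. Control 3 was the lowest of the 6 tumors for 6 of the 7 genes and DFX 3 was the highest for 5, whereas Control 3 was lowest for 21.3% and DFX 3 highest for 17.3% of all genes. Over all 39 genes, which include these 7, Control 3 was lowest for 18 (46.2%) and DFX 3 highest for 12 (30.8%). Over the 18 histone demethylases, which include KDM3A, KDM4B and KDM4C, the counts were 10 (55.6%) and 8 (44.4%). Over the 9 ALKBH and FTO genes, none of them among the 7, the counts were 1 (11.1%) and 0. These tumors were singled out after the values were seen. Relative to each gene's Control mean, the median over the 7 genes was 0.11, 0.13 and -0.27 in the Control group and 0.07, 0.03 and 0.38 in the DFX group. KDM3A, a histone H3 demethylase, gave the clearest case in the DFX group. Its values were 8.54, 8.54 and 8.28 against 8.38, 8.40 and 9.12, so that DFX 3 stood above the other 5 tumors, which lay close together.

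Among 11 other tested HIF targets, DFX 3 was the highest tumor for 9, while Control 3 was the lowest for 5 and DFX 1 for 4. By group means, 10 of the 11 were higher in the DFX group, against 10836 of all 22718 genes. ANGPTL4, a secreted lipase inhibitor, was the 1 gene called (12.88, 13.25 and 12.38 against 13.32, 13.57 and 13.88, log2 fold change 0.75, SE 0.26, limma unadjusted p = 0.028, adjusted p = 0.562). The median over these 11 genes was -0.03, 0.20 and -0.17 in the Control group and 0.06, 0.11 and 0.50 in the DFX group.

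**Figure D2:**
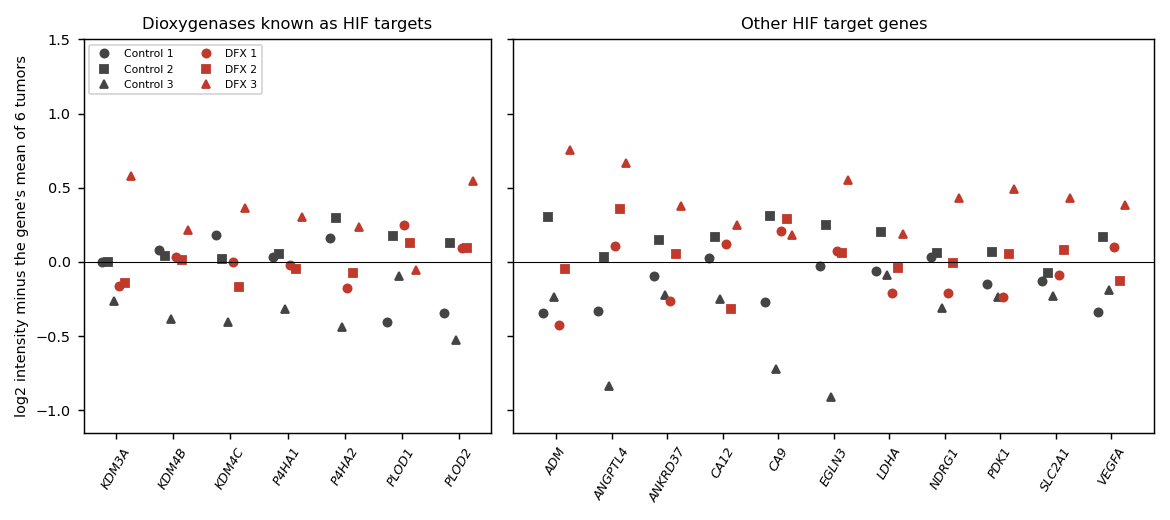
Log2 intensity of each gene minus its mean over 6 tumors (y axis) for 7 dioxygenases known as HIF targets (left) and 11 other HIF targets (right), with Control tumors in grey and DFX-treated tumors in red. DFX 3 (red triangles) was the highest tumor for 5 of 7 and 9 of 11 genes, and Control 3 (grey triangles) was the lowest for 6 of 7 and 5 of 11.

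Of the 18 histone demethylases and related oxygenases, 10 were higher, 8 were lower and none was called. Their median log2 fold change was 0.05, or 0.07 over the 17 genes other than KDM5A. KDM4B, which removes methyl groups from histone H3 and had the brightest probe of the class, was at 12.50, 12.46 and 12.03 in the Control group and at 12.45, 12.43 and 12.63 in the DFX group. Its log2 fold change was 0.17 (SE 0.16, limma unadjusted p = 0.323, adjusted p = 0.776), and Control 3 alone lay below the rest. The highest value of the class was 0.18, shared by KDM2A and KDM3A.

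The lowest measured values were those of JMJD6, KDM6B and MINA. JMJD6, a lysyl hydroxylase of splicing factors, was at 8.25, 8.70 and 9.04 against 8.37, 8.30 and 7.93, a log2 fold change of -0.47 (SE 0.24, limma unadjusted p = 0.0956, adjusted p = 0.643). KDM6B, which removes the methyl mark set by the Polycomb enzymes, had -0.35 (SE 0.19, limma unadjusted p = 0.109), and the ribosomal oxygenase MINA, named RIOX2 in RefSeq, had -0.29 (SE 0.19, limma unadjusted p = 0.178) by its brightest probe and 0.06 by its second. KDM6A, which acts on the same mark as KDM6B, had 1 probe at -0.22 and 1 at 0.20. JMJD6 was called when Control 1 was left out. KDM5A, whose tested probe was well above background in Control 2 only, had no measurable fold.

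The JmjC domain is not the only way to demethylate a histone, and KDM1A and KDM1B use a flavin without iron. KDM1A was at 8.67, 8.84 and 8.98 against 8.38, 8.68 and 8.50, with a log2 fold change of -0.31 (SE 0.14) and an interval of -0.64 to 0.02. KDM1B was at 5.24, 5.44 and 5.89 against 5.49, 5.01 and 4.67, with -0.47 (SE 0.26). Neither was called. Of 24 tested enzymes that set methyl marks on histones, DNA or RNA, 1 brightest probe was called, against 4 genes when any probe was counted. MLL4, named as on the array, is a histone methyltransferase and was lower by both of its called probes (log2 fold changes -0.35 and -0.55). Probes other than the brightest were called lower for MLL (-0.69) and SETDB1 (-0.50) and higher for WTAP (0.54), whose brightest probes were at 0.04, 0.07 and 0.02.

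Of the 9 ALKBH and FTO genes, 6 were lower and 3 higher, with a median log2 fold change of -0.07, and ALKBH6 was called. ALKBH6 is a member of the AlkB family whose substrate is less well known than those of its relatives. Its single probe (A_23_P39402) is shown because it carries the lower of the 2 called values. It lies in exons on the minus strand of hg19, chr19:36502366-36503981, and its 60 bases span 1616 bases of the genome, so it crosses an exon junction.
ALKBH6 probe: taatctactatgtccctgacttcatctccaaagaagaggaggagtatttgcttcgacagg

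The log2 intensity of ALKBH6 was 8.13, 8.27 and 7.95 in the Control group and 7.76, 7.74 and 7.44 in the DFX group. Every Control tumor lay above every DFX-treated tumor, and the probe was well above background on all 6 arrays. ALKBH6 fell by 0.47 on the log2 scale (SE 0.14, 95% interval -0.82 to -0.12), so that its linear intensity fell by 27.8% (limma unadjusted p = 0.0172, adjusted p = 0.534). With the column of the slide as a block the call was lost (log2 fold change -0.45, limma unadjusted p = 0.123), as it was without Control 2 (log2 fold change -0.39, limma unadjusted p = 0.0585). Only columns 2 and 4 held both groups, so the block fit compares Control 1 with DFX 2 and Control 3 with DFX 3. An effect of the column cannot be told apart from the use of fewer tumors.

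**Figure D3:**
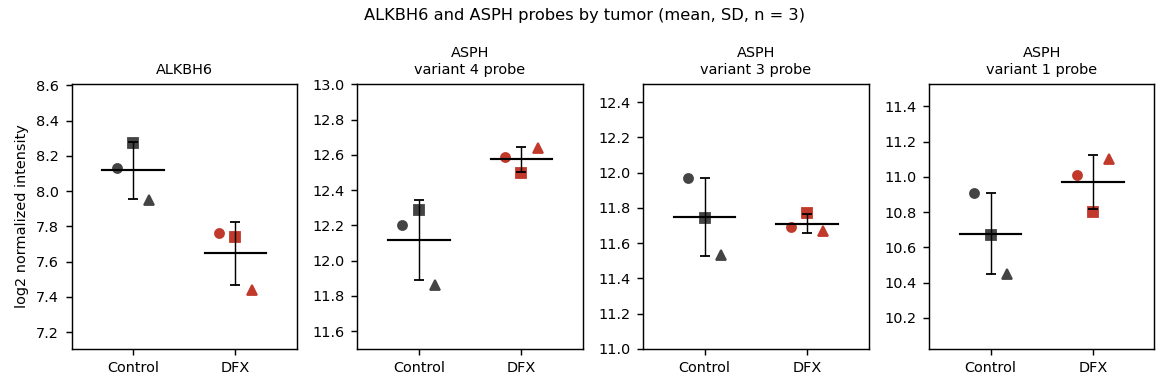
Log2 normalized intensity (y axis) of the ALKBH6 probe and the 3 ASPH probes in 3 Control (grey) and 3 DFX-treated (red) tumors, with mean and SD, where circles, squares and triangles are replicates 1, 2 and 3, and all panels span the same log2 range around their own values. The groups did not overlap for ALKBH6 and for the ASPH variant 4 probe, and they overlapped for the other ASPH probes.

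FTO and ALKBH5 remove methyl groups from adenosine in RNA. FTO was at 10.87, 10.96 and 11.02 in the Control group and at 10.92, 11.03 and 10.96 in the DFX group, the mean of 10 spots per array. Its log2 fold change was 0.03 (SE 0.10, 95% interval -0.22 to 0.27, limma unadjusted p = 0.81, adjusted p = 0.957). A second FTO probe was at 7.72, 7.91 and 8.60 against 8.0, 8.25 and 9.22, with 0.41 (SE 0.38, limma unadjusted p = 0.325). ALKBH5 was at 10.35, 10.62 and 10.27 against 10.41, 10.52 and 10.34, with a log2 fold change of 0.01 (SE 0.13, 95% interval -0.31 to 0.33, limma unadjusted p = 0.934, adjusted p = 0.988), and its second probe was at -0.09. The groups overlapped throughout.

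ALKBH7, a mitochondrial member of the family with the brightest probe of the class, was at 11.48, 11.30 and 11.61 against 11.38, 11.54 and 11.26, a log2 fold change of -0.07 (SE 0.13, limma unadjusted p = 0.608, adjusted p = 0.892). ALKBH4, at 9.29, 9.28 and 9.42 against 9.65, 9.62 and 9.41, was the highest of the class at 0.23 (SE 0.12, limma unadjusted p = 0.0972). ALKBH8, a modifier of transfer RNA, had -0.17 by its brightest probe and -0.42 by a second probe that was well above background on no DFX array. ALKBH1, ALKBH2 and ALKBH3, which act on alkylated nucleic acids, ranged from -0.22 to -0.07, and both ALKBH3 probes were lower (-0.18 and -0.27).

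The TET enzymes oxidize methylated cytosine in DNA, and only TET2 was measured. TET2 was at 9.59, 9.26 and 9.04 in the Control group and at 9.34, 9.27 and 9.43 in the DFX group, with a log2 fold change of 0.05 (SE 0.16, limma unadjusted p = 0.762, adjusted p = 0.944). Its 4 probes ranged from -0.31 to 0.38 and the groups overlapped for each. The 3 probes of TET1 and the 2 of TET3 were well above background on none of the 6 arrays, where the lowest log2 intensity well above background was 3.84 to 4.69. TET1 values lay between 1.88 and 4.10 and TET3 values between 2.03 and 3.82.

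**Figure D4:**
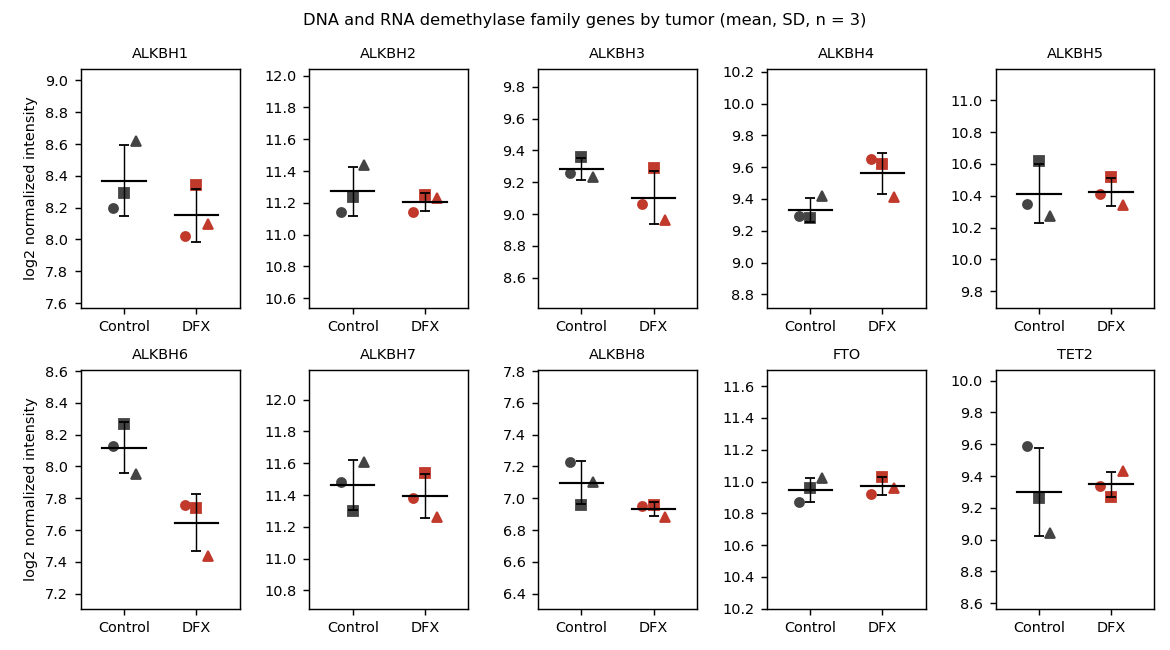
Log2 normalized intensity (y axis) of the brightest probe of the ALKBH genes, FTO and TET2 in 3 Control (grey) and 3 DFX-treated (red) tumors, with mean and SD, where circles, squares and triangles are replicates 1, 2 and 3, and all panels span the same log2 range. ALKBH6 is the 1 gene whose groups did not overlap, and the ALKBH4 groups overlap by 9.42 in Control 3 against 9.41 in DFX 3.

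ASPH, of the class of other members, hydroxylates aspartate and asparagine in epidermal growth factor-like domains. Its locus on chromosome 8 also encodes junctin and junctate, shorter proteins that lack the catalytic domain. The array held 3 probes, annotated to partly different sets of transcripts. The transcripts listed for the called probe include variant 4 and not variant 1, the full-length form. Which of the forms it read was not tested. The probe designed on transcript variant 4 (A_24_P295245, hg19, chr8:62596599-62596658, minus strand, exonic) was at 12.20, 12.29 and 11.86 in the Control group and at 12.59, 12.50 and 12.64 in the DFX group. Every DFX-treated tumor lay above every Control tumor. The log2 fold change was 0.46 (SE 0.14, 95% interval 0.11 to 0.81), a 1.37-fold difference (limma unadjusted p = 0.019, adjusted p = 0.545). The call was lost with the slide column as a block, a fit that compares the groups in columns 2 and 4 only (log2 fold change 0.54, limma unadjusted p = 0.106). It was also lost without DFX 1 (0.45, limma unadjusted p = 0.0547) and without DFX 3 (0.43, limma unadjusted p = 0.0543). Averaging the 3 probes of the gene lost it as well (0.24, limma unadjusted p = 0.13). This averaging was planned for the counts and medians, and its use for single genes was chosen after seeing the data.

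The other ASPH probes did not pass. The probe of transcript variant 1, the full-length form with the catalytic domain, was at 10.91, 10.67 and 10.45 against 11.01, 10.80 and 11.10, with a log2 fold change of 0.30 (SE 0.16, limma unadjusted p = 0.112, adjusted p = 0.655). The probe of transcript variant 3, a short form, was at 11.97, 11.74 and 11.53 against 11.69, 11.77 and 11.67, with -0.03 (SE 0.14, limma unadjusted p = 0.817, adjusted p = 0.959). The change of the variant 4 probe exceeded that of the variant 3 probe by 0.49 on the log2 scale. Taken per tumor and relative to its mean in the Control group, the variant 4 value minus the variant 3 value was -0.14, 0.18 and -0.04 in the Control group and 0.53, 0.35 and 0.59 in the DFX group. Against the variant 1 probe the change differed by 0.16, with overlapping groups. Both contrasts were chosen after the values were seen and are given without a test. The call was not shared by all probes of the gene.

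The other 5 genes of that class were not called. P4HTM, a transmembrane prolyl hydroxylase of the endoplasmic reticulum, had a log2 fold change of 0.22 (SE 0.14) and HSPBAP1 of 0.10 (SE 0.13). BBOX1 and TMLHE catalyze steps of carnitine synthesis and had 0.22 (SE 0.36) and -0.20 (SE 0.15), and the 4 TMLHE probes ranged from -0.20 to 0.13. BBOX1 varied between the Control tumors (8.21, 7.64 and 6.76) more than between the DFX-treated tumors (7.75, 7.80 and 7.71). PHYH, which starts the breakdown of phytanic acid, had -0.05 (SE 0.11).

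Of 21 further tested enzymes with the same cofactors, 1 was called. PHYHD1 was at 4.83, 5.17 and 5.27 in the Control group and at 4.55, 3.35 and 3.79 in the DFX group, where 1 of 3 arrays was well above background, so that the fold rests in part on values near background (log2 fold change -1.19, SE 0.32, limma unadjusted p = 0.00963, adjusted p = 0.514). The oxygen-sensing hydroxylases EGLN1, EGLN2, EGLN3 and HIF1AN were at 0.12, -0.12, 0.46 and -0.32, none of them called. Of 22 tested enzymes that make or use 2-oxoglutarate, succinate or fumarate, SUCLG2, a subunit of succinyl-CoA synthetase, was called (9.17, 9.09 and 9.29 against 9.39, 9.52 and 9.51, log2 fold change 0.29, SE 0.11, limma unadjusted p = 0.0362, adjusted p = 0.578), and 13 of the 22 were lower.

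All 6 arrays lay on 1 slide, the Control group in row 1 and the DFX group in row 2, so slide row and treatment cannot be told apart. The share of probes well above background ranged from 50.3% to 56.5% over the arrays. All 8 epithelial markers were detected, of which 6 were higher and 2 lower (KRT7 at -0.17 and KRT17 at -0.06, not called). The 3 called were higher (KRT8, KRT18 and EPCAM, log2 fold changes 0.27 to 0.48). The median over the 8 markers relative to the Control means was -0.06 to 0.08 in the Control group and 0.15 to 0.20 in the DFX group. The red blood cells, fibroblasts, endothelial cells and leukocytes of these tumors are mouse cells, while the probes are human. Whether the signals of their markers came from mouse RNA or from the human tumor cells cannot be told apart. For the 3 tested of 4 red blood cell genes the median was -0.25 to 0.33 against -1.17 to -1.07, with HBA2 (log2 fold change -1.93) and HBD (-1.12) called lower. Of 7 tested fibroblast markers DCN was called lower (-1.30) and LUM higher (0.87), with medians of -0.51 to 0.32 against -0.24 to 0.05, and PDGFRB and POSTN were not detected on all arrays. Of 4 tested endothelial markers PECAM1 was called higher (1.27), while the other 3 were lower and not called. VWF was at -0.58 and CDH5 at -0.09. KDR did not reach a signal well above background in either group, so no fold is given. The medians over the 4 markers were -0.26 to 0.17 against -0.34 to 0.24. None of 4 tested leukocyte markers was called (medians -0.14 to 0.13 against -0.05 to 0.14). Of 6 proliferation markers 2 were higher and 4 lower, and none was called by its brightest probe (-0.28 to 0.42 against -0.39 to 0.07). A probe of MKI67 other than the brightest was called higher. The part of these cell types and of proliferation in the values of ALKBH6, ASPH and the collagen hydroxylases was not tested.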

How the data were processed

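RNA of 6 xenograft tumors (3 Control, 3 DFX) was hybridized to one-color Agilent arrays. The deposited scanner files, written by Feature Extraction 10.7.1.1 per the file headers (9.5.1.1 per the labels), hold intensities on a linear scale, not normalized between arrays, and a p-value of each spot against its background. The deposited value table holds intensities that the authors had quantile-normalized, and was used as an alternative. Here the log2 processed signal of 58717 spots was quantile-normalized, 1398 flagged spot values were dropped, and each probe was taken as the mean of its spots. A probe was kept when its median p-value against background was under 0.05 on every array (31807 of 50599). DFX was compared with Control in limma 3.58.1 (R 4.3.3, lmFit, then eBayes with 2.04 prior degrees of freedom, two-sided), and p-values were adjusted by Benjamini-Hochberg across the 31807 probes. The study's methods give a threshold of 0.05 for p and name neither the test behind it nor an adjustment for these arrays. Calls here use the unadjusted p. Positions (hg19) and gene names were taken from the annotation of the array. The 1092 tested probes without a gene name were left out of the gene counts.

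The genes, classes and lists were chosen with earlier results of these data known. Full values are given for called genes, collagen hydroxylases, TET genes, FTO, ALKBH5 and the gene with the brightest probe of each class. Other genes and those of the further lists that are named in the text were chosen after their values were seen. Replicate numbers did not pair the tumors, since deviations of same-numbered tumors from their group means correlated at 0.0158 to 0.0274. The fit of DFX against Control was tested on simulated data (31803 probes, 200 changed). It found 95% of changes of 1 log2 unit unadjusted and 29% adjusted, and it called 5.07% of unchanged probes unadjusted. Changes under 1 log2 unit, the size of those of the dioxygenases, were not simulated. The noise was normal, independent between probes and drawn with the fitted spread, so the share of unchanged probes called checks only the code. Nothing in the sources ties tumors to litters or cages, and the number of arrays limits the precision. Alternatives covered scaling, background correction, the filter on dim probes, flagged spots, the deposited table, the test, the slide column and replicate number as blocks, the choice of probe per gene, and dropping each tumor in turn.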

Additional observations from a re-analysis of the deposited data

How the results depend on the processing

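No dioxygenase passed at an adjusted p under 0.05 under any of the alternatives run (limma, 2 genes at an unadjusted p under 0.05). With 3 tumors a group the Kruskal-Wallis p cannot fall below 0.0495, a value that 4927 probes shared. No probe could pass adjustment in that setting, so it is no check on this result. The number of called probes was 4927 with the Kruskal-Wallis H test, 1418 with the slide column as a block and 1889 to 2717 with a tumor left out. With the slide column as a block, 0 dioxygenase genes were called by any probe and 0 by the brightest. Only columns 2 and 4 held both groups, so an effect of the column cannot be told apart from the use of fewer tumors. With a tumor left out, 1 to 4 genes were called by any probe and 1 to 3 by the brightest. The single gene was ALKBH6, without DFX 1, and the 4 without Control 1 were ALKBH6, ALKBH8, ASPH and JMJD6. Over these alternatives the log2 fold change of ALKBH6 was -0.56 to -0.36 (limma or Kruskal-Wallis, unadjusted p = 0.00968 to 0.123) and that of ASPH 0.24 to 0.55 (unadjusted p = 0.005 to 0.13), and neither changed sign. The lowest ASPH value came from the mean of its 3 probes, under which ALKBH6 and ALKBH8 were called and ASPH was not. That setting was planned for the counts and medians, and its use for single genes was chosen after seeing the data. Median scaling moved the median log2 fold change of all genes from -0.012 to -0.095, and with it the medians of all dioxygenases to -0.0969, of the histone demethylases to -0.0639 and of the ALKBH and FTO genes to -0.197, and 7 of the 39 genes changed sign. With a tumor left out the median of the histone demethylases was -0.0797 to 0.0706, the former without DFX 3, and up to 9 genes changed sign, the most without Control 3. With the replicate number as a block, the called genes were ALKBH6, ASPH and FTO, 3 genes by any probe and 2 by the brightest, and 0 changed sign. FTO was called only by its second, dimmer probe (log2 fold change 0.41 in the main fit). The replicate numbers did not pair the tumors. The collagen hydroxylase median stayed between 0.0342 and 0.268. The causes of these moves were not tested. With 3 tumors a group, a dim probe such as that of KDM5A gave no fold.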
